A study of Drosophila melanogaster with 12 samples.

Results

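The step from 6 to 12 h after puparium formation was compared in Drosophila γ neurons, in 6 RNA libraries, with A, B and C as the replicates of both times. The genes described are those that reached a value of 50 or more in 3 or more of these 6 libraries, 6428 of the 17050 genes in the table. Of these, 5041 reached 50 in all 6 libraries and 374 in exactly 3. Another 444 genes reached it in 2 libraries and were left out. The third-highest value was 50.09 in the member nearest the threshold and 49.95 in the nearest gene outside it. Through all 3 libraries of a single labelled time alone, 13 genes entered by way of 6 h and 19 by way of 12 h. Of these, 0 were among the genes called below. This count does not cover genes that reached 50 only in B and C of one time and A of the other. Called genes of that kind include scb, at 0, 818.1 and 770.1 at 6 h and at 366.3, 0 and 0 at 12 h (A, B and C), and Lkr. Others are AstA-R1, Hs3st-B, 5-HT2A, Osi7, DIP-theta, dpr13 and CG4115. Those in the gene lists below also count in the list shares and medians. The number of called genes of this kind was not counted.

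γ neurons are the earliest-born intrinsic neurons of the mushroom body, the insect centre of olfactory learning. During metamorphosis their larval axon branches and dendrites are pruned and later regrown. The steroid hormone ecdysone, acting through the nuclear receptor EcR and after a TGF-β signal through the receptor Babo, sets off pruning, and the transcription factor Sox14 and the actin regulator Mical act downstream. Hr51, also called unfulfilled, is a nuclear receptor that this cell type needs for regrowth.

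All 6 libraries carried the same genotype: the 71G10 driver, a UAS-RedStinger reporter and UAS-HR51 RNAi, in a y,w background, males and females taken at random at 25°C. Pupae were thus all under RNA interference against Hr51, and no control genotype was analysed here. MARS-seq, which reads the 3′ ends of transcripts, was run on 1000 cells per library sorted for red fluorescence, so a library holds whichever cells the driver marks. The labels do not say whether A, B and C were separate dissections. What the p-values measure is thus the spread among these libraries, which may be technical.

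Values are reads per 10000000 mapped reads, as scaled by the authors. The 6 libraries held 1597241 to 3752666 mapped reads, so that 1 read was worth 2.665 to 6.261 units and a value of 50 stood for 7.99 to 18.8 reads. Neuronal and mushroom body genes were present throughout: the pan-neuronal RNA-binding protein gene elav lay between 12280 and 16450, the eye-field factor gene ey between 7700 and 11100 and the adhesion gene Fas2 between 9352 and 12510. The hemocyte genes Hml, NimC1, He and srp, the muscle genes Mhc and wupA and the photoreceptor gene ninaE were at 0 in all 6, and the glial genes repo and alrm reached at most 93.25 and 3.346. Other members of these lists had reads. The hemocyte gene crq lay between 116.3 and 458.7 and Pxn, another, at 353.2 in A of 6 h and between 5.33 and 56.62 elsewhere, the glial gene nrv2 lay between 2209.7 and 4690, and the muscle genes Tm1 and bt between 864 and 5180.1. At 6 h, replicate A differed from B and C in some Kenyon cell genes too. The neuropeptide precursor sNPF was at 0 against 495.6 and 438.3 and the transporter prt at 4.307 against 117.2 and 106.4. Some other such genes were close: ey was at 8632 beside 8802 and 8897, dac at 19030 beside 21410 and 18440, and rut at 534.1 beside 530.3 and 601. Further ones were not: toy was at 3007 against 6371 and 8559, and Dop1R1 at 1318 against 679.5 and 788.9. The γ neuron gene Imp was at 7465 against 27440 and 18160. For sNPF and prt, A of 6 h was far from the later libraries too. Those labelled B and C of 12 h held sNPF at 404.9 and 620.6 and prt at 304.5 and 280.6. For most genes called in B and C, the A libraries of both times went against their labels. Of the 394 genes called between the times in B and C, the library labelled A of 6 h lay nearer B and C of 12 h for 349, and the one labelled A of 12 h nearer B and C of 6 h for 324. The labels are kept as deposited, so that every value given as labelled, the count of 0 calls included, depends on them, and whether they are right for A was not tested. Calls, list counts and chromosome shares after that first comparison are from B and C, and the named genes are also given in A and as log2 changes over all libraries, where the smallest limma adjusted p of any gene was 0.88.

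Hr51 transcripts were found in all 6 libraries. They stood at 4144, 5044 and 5666 in A, B and C of 6 h and at 5045, 3741 and 3794 in A, B and C of 12 h. The libraries of both times overlapped, with A of 12 h between B and C of 6 h. The log2 change was −0.24 ± 0.26 (SE; limma adjusted p = 0.995) over all libraries and −0.5 ± 0.25 (SE; limma adjusted p = 0.323) in B and C, and was called in neither. Without a control genotype these values do not measure the knockdown. Its position is 2R (plus strand, 15331325 to 15339384).

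With the libraries as labelled, no gene was called between 6 and 12 h. Limma called 0 of 6428 genes at an adjusted p under 0.05 (0%), while 295 (4.59%) had an unadjusted p under 0.05. DESeq2 on the recovered reads called 2 genes, Hsp68 and CG34356, and edgeR 0. All 3 libraries of one time lay above all 3 of the other for 523 genes (8.14%). With 3 libraries a time this also arises without any change, so by itself it does not mark out a gene. Leaving out replicate A of 6 h gave 50 calls (47 higher, 3 lower) and leaving out B of 6 h gave 1. Leaving out both A libraries of these times, a setting chosen after seeing the data, gave 365 (227 higher, 138 lower).

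Among the genes with no overlap as labelled, a mean of 200 or more and a log2 change of 1 or more, 62 were higher and 31 lower at 12 h. The largest difference upwards was that of Hsp68, a heat shock protein gene. It stood at 297.2, 213.2 and 194.1 in A, B and C of 6 h and at 1815, 1024 and 2121 in A, B and C of 12 h. All 3 libraries of 12 h exceeded all of 6 h, by 2.77 ± 0.66 (SE; limma adjusted p = 0.88). The zinc-finger gene vfl, also called zelda, stood at 51.69, 101.3 and 37.56 at 6 h and at 679.4, 384.8 and 194.3 at 12 h (A, B and C). Its largest value of 6 h was below its smallest of 12 h, with a log2 difference of 2.65 ± 0.81 (SE; limma adjusted p = 0.995). CG34356, named bma in the current annotation, stood at 1029.5, 943.3 and 820.2 at 6 h and at 1842, 6261 and 5688 at 12 h (A, B and C). Here A of 12 h lay far below B and C, closer to the libraries of 6 h, and the log2 change was 2.12 ± 0.46 (SE; limma adjusted p = 0.88). Next among the first 8 higher genes by size, to which naming was limited, were the RNA-binding protein gene bol, CG42784, the calcium-activated potassium channel gene slo, and Hsp70Aa and Hsp70Ab. These last are near-identical copies that overlap in the table and count as 1 signal of uncertain origin, at 146.5, 77.28 and 31.3 at 6 h and at 329.7, 190.7 and 464.1 at 12 h (A, B and C) for Hsp70Aa.

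Downwards, the largest difference was that of ImpE2, a gene first described as ecdysone-inducible in imaginal discs. It stood at 400.6, 474.3 and 325.6 in A, B and C of 6 h and at 66.61, 10.04 and 16.19 in A, B and C of 12 h. No library of 12 h reached those of 6 h, though A of 12 h was the highest of its time, and the log2 change was −4.08 ± 1.02 (SE; limma adjusted p = 0.88). The tubulin gene betaTub85D stood at 297.2, 309.1 and 444.5 at 6 h and at 209.8, 50.19 and 43.17 at 12 h (A, B and C). The gap between times was wide in B and C and narrow in A, and the log2 change was −2.14 ± 0.75 (SE; limma adjusted p = 0.995). The tetraspanin gene Tsp66E stood at 667.7, 109.3 and 407 at 6 h and at 73.27, 100.4 and 48.57 at 12 h (A, B and C), with B of 6 h just above B of 12 h. The makorin gene Mkrn1, the TRAPP complex subunit gene Bet5, CG31637, CG33543 and CG2116 were the remaining ones of the first 8 lower genes, each with a limma adjusted p between 0.88 and 0.995. None of the 16 genes was called over all libraries. The sign of A was that of B and C in all 16, as the absence of overlap by which they were named requires. With B and C alone, 6 of the 16 were called. CG34356 rose there by 2.76 ± 0.28 (SE; limma adjusted p = 2.19e-05) and bol by 3.45 ± 0.63 (SE; limma adjusted p = 0.0029), and both calls held under every one of the 12 alternatives run on B and C. CG33543 changed by −2.70 ± 0.61 (SE; limma adjusted p = 0.0146), Hsp68 by 2.85 ± 0.67 (SE; limma adjusted p = 0.018), ImpE2 by −4.84 ± 1.30 (SE; limma adjusted p = 0.0388) and betaTub85D by −2.97 ± 0.82 (SE; limma adjusted p = 0.0451). The call of CG33543 (limma adjusted p up to 0.154) ended without C of 12 h or C of 6 h, and that of betaTub85D (0.223) without any of the 4 libraries. By setting, fitting 6 and 12 h alone and no filter on low values ended that of betaTub85D.

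**Figure D1:**
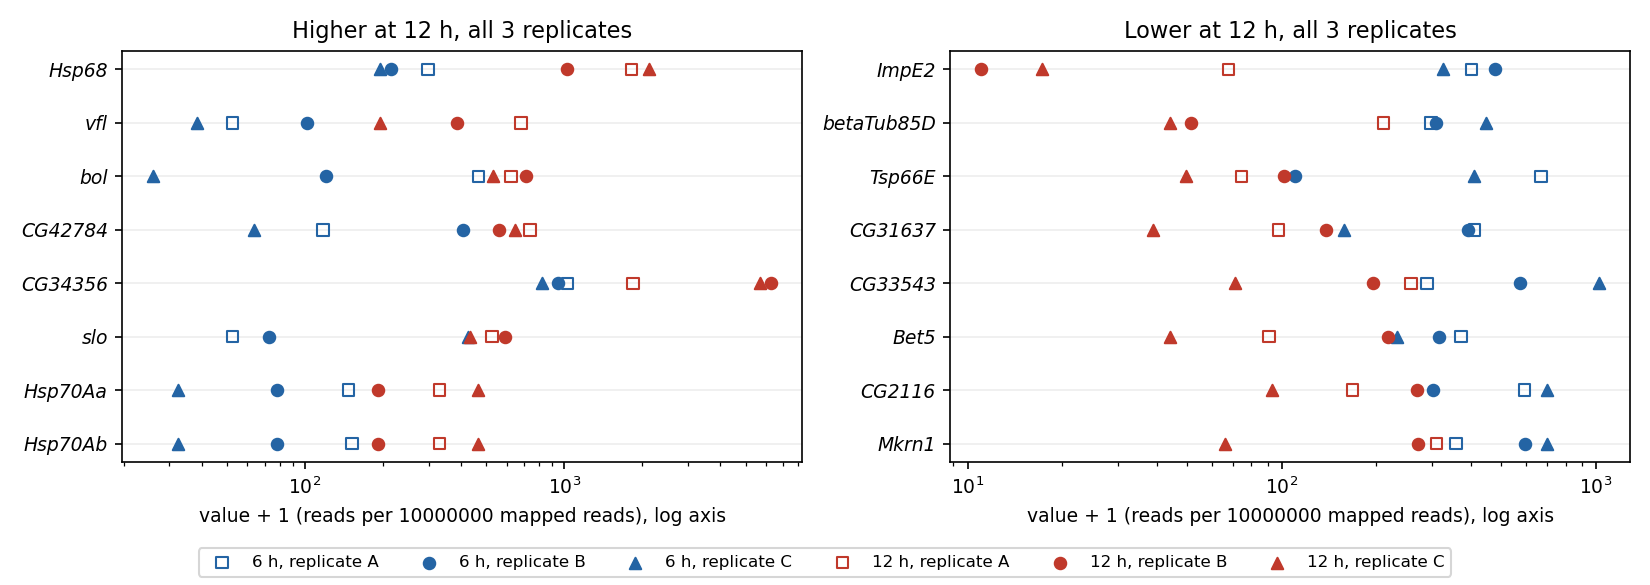
Values of the 16 genes named from the comparison as labelled, on a log axis of value + 1 (reads per 10000000 mapped reads); blue marks are 6 h, red marks 12 h, open squares replicate A, circles B and triangles C. In each row the 3 red marks lie on one side of the 3 blue marks, and for CG34356 and betaTub85D the open red square lies nearer the blue marks than the other red marks do.

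Replicate A moved against B and C for most called genes. To compare them, the step was fitted with the A libraries kept out, on the 8 others of all 4 times. In B and C, limma called 394 of 6428 genes (6.13%), 232 higher (3.61%) and 162 lower (2.52%) at 12 h. For 26 of these 394, or 6.60%, A of 12 h less A of 6 h had the same sign as in B and C, and for 368 the opposite sign. The sign was shared by 22 of the 232 higher and 4 of the 162 lower genes. Over all 6428 members it was shared by 2375, or 36.95%. Of the 368 genes with the opposite sign, 256 had a log2 change in A of at least 1 in size, and of the 26 with the same sign, 7.

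The sizes mirrored each other. The 232 genes called higher had a median log2 change of 1.67 in B and C and −1.23 in A, and the 162 called lower had −1.55 and 1.60. On a scale where B and C average 0 at 6 h and 1 at 12 h, A of 6 h had a median position of 1.11 over the 394 genes (quartiles 0.835 and 1.49) and A of 12 h one of 0.253 (quartiles 0.0996 and 0.441). Both A libraries were nearer the mean of the other time for 288 genes, and neither for 9.

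**Figure D2:**
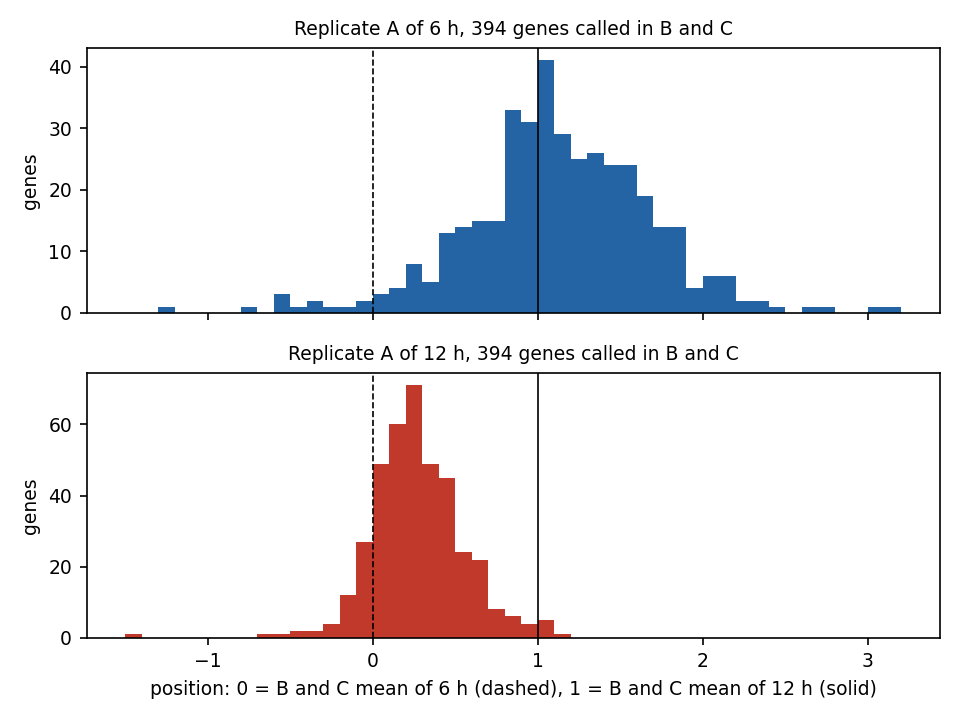
Position of the replicate A libraries for the 394 genes called in replicates B and C, as counts of genes on a scale where 0 is the B and C mean of 6 h (dashed) and 1 that of 12 h (solid); the upper panel is A of 6 h and the lower A of 12 h. A of 6 h gathers around its median of 1.11 and A of 12 h around 0.253.

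Across all 6428 genes, which are not independent replicates, Pearson's r of the log2 values was 0.841 between B and C of 6 h and 0.845 between B and C of 12 h. A of 6 h correlated with B and C of its own time at 0.732 and 0.698, and with those of 12 h at 0.839 and 0.800. A of 12 h correlated with B and C of 6 h at 0.877 and 0.846, and with those of its own time at 0.832 and 0.796. The A libraries correlated with each other at 0.758. Its cause was not tested.

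**Figure D3:**
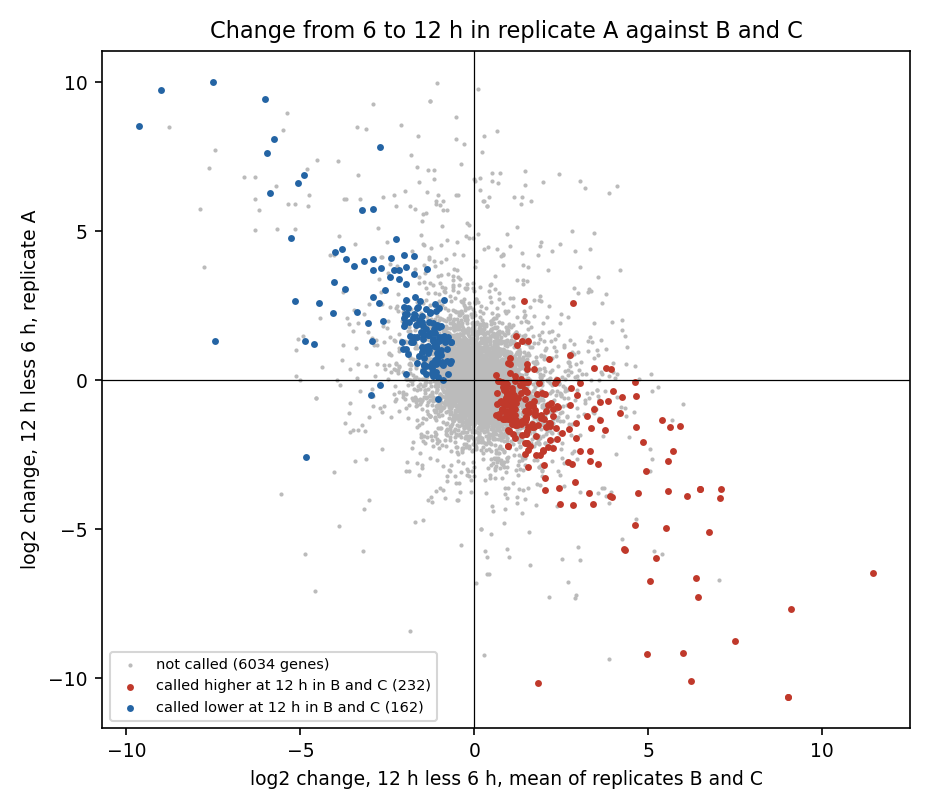
Log2 change from 6 to 12 h in replicate A (vertical) against the mean change in B and C (horizontal) for the 6428 genes; red and blue points are the 232 genes called higher and the 162 called lower in B and C, grey points the 6034 others. Most coloured points lie in the upper left and lower right quadrants, where the signs are opposite, and 26 lie in the other quadrants.

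The 26 genes with a shared sign included neuronal genes of the lists below. The temporal factor gene chinmo stood at 5328, 4956 and 3844 in A, B and C of 6 h and at 6338, 8071 and 9952 in A, B and C of 12 h. All 3 libraries of 12 h lay above all of 6 h, the A libraries by the least, and in B and C chinmo rose by 1.04 ± 0.21 (SE; limma adjusted p = 0.00754). The semaphorin receptor gene PlexA stood at 762.4, 1135 and 1697 at 6 h and at 2135, 2995 and 3384 at 12 h (A, B and C). Its groups did not overlap either, and it rose in B and C by 1.20 ± 0.28 (SE; limma adjusted p = 0.0158). The crossveinless RhoGAP gene cv-c stood at 491.1, 229.2 and 125.2 at 6 h and at 812.6, 659.2 and 874.3 at 12 h (A, B and C). It was the one called gene among 31 axon pruning effectors, with A of 12 h between B and C and a rise in B and C of 2.16 ± 0.47 (SE; limma adjusted p = 0.01). The neuroligin gene Nlg3 stood at 874.4, 879.4 and 576 at 6 h and at 1136, 1901 and 2153 at 12 h (A, B and C). Its A of 6 h was close to B, while A of 12 h was the lowest of its time, and the rise in B and C was 1.51 ± 0.30 (SE; limma adjusted p = 0.00517). Of the 394 genes, 21 had no overlap among all 6 libraries, against 523 (8.14%) of all members. With A included, the changes were 0.78 for chinmo, 1.29 for PlexA, 1.68 for cv-c and 1.13 for Nlg3. The calls of chinmo (limma adjusted p up to 0.128) and cv-c (0.127) ended without C of 12 h or C of 6 h, that of PlexA (0.145) without B or C of 12 h or B of 6 h, and that of Nlg3 (0.0749) without C of 12 h.

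The genes called in B and C rest on 2 libraries per time. No overlap between those libraries occurred in 2976 of 6428 genes (46.3%), so the absence of overlap in B and C is common and by itself does not mark out a gene. Of the 394 calls, 131 held under all 12 alternatives run (69 higher, 62 lower), and 3 of these 131 shared their sign with A. With median-ratio scaling the median change of all genes moved from 0.144 to 0.013 and the split became 176 higher and 201 lower (46.7% higher against 58.9%). The number of calls fell to 165 without replicate C of 12 h and to 254 without B of 12 h. In these bulk libraries, fewer cells of a type and less RNA per cell cannot be told apart.

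Among the genes higher at 12 h in B and C, 166 were called with no overlap, a mean of 200 or more and a log2 change of 1 or more. The immunoglobulin gene beat-Ic, of the Beaten path family, stood at 7249.5, 2.665 and 0 in A, B and C of 6 h and at 79.93, 5993 and 4868 in A, B and C of 12 h. In B and C it went from 1 read in all to 2693, a ratio of 2976 (95% counting interval 534 to 117600), whereas A of 6 h was the highest of the 6 libraries. The leucokinin receptor gene Lkr stood at 2231, 0 and 0 at 6 h and at 9.991, 371.4 and 825.7 at 12 h (A, B and C). B and C of 6 h held 0 reads, so it was at least 97.2-fold higher at 12 h by a floor of 3 reads over the group, with A again the other way. Ca-alpha1T, which encodes a T-type calcium channel, stood at 5427, 5.33 and 31.3 at 6 h and at 156.5, 1395 and 1700 at 12 h (A, B and C). The rise in B and C was 6.75 ± 0.53 (SE; limma adjusted p = 1.67e-06), and A of 6 h exceeded every library of 12 h. Hs3st-B encodes an enzyme that sulfates heparan sulfate, and its values were 1189, 2.665 and 12.52 at 6 h and 6.661, 478.5 and 771.7 at 12 h (A, B and C). The ratio over the reads of B and C was 105 (95% counting interval 35.7 to 514), with A of 6 h above and A of 12 h below as before. In the fit with A the values were 5.48 for beat-Ic, 3.52 for Lkr, 2.80 for Ca-alpha1T and 1.86 for Hs3st-B.

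Another Beaten path gene, beat-Ib, stood at 2472, 109.3 and 6.261 at 6 h and at 3.3, 1579.5 and 2078 at 12 h (A, B and C). It rose by 6.0 ± 0.81 (SE; limma adjusted p = 0.000258) in B and C, while A went from the highest value to the lowest. The transcriptional repressor gene Blimp-1, which ecdysone induces, stood at 9657, 618.2 and 319.3 in A, B and C of 6 h and at 706, 11729 and 11609 in A, B and C of 12 h. B and C of 12 h were nearly equal, A of 6 h lay close beneath them and A of 12 h beside 6 h, and the rise in B and C was 4.71 ± 0.26 (SE; limma adjusted p = 3.70e-08). DopEcR, a receptor for dopamine and ecdysteroids, stood at 1202, 18.65 and 56.35 at 6 h and at 39.96, 876.7 and 782.5 at 12 h (A, B and C). Its rise in B and C was 4.63 ± 0.51 (SE; limma adjusted p = 4.48e-05) against −4.88 in A. The Elav-family RNA-binding protein gene Rbp9 stood at 4139.5, 23.98 and 87.65 at 6 h and at 79.93, 1011 and 852.7 at 12 h (A, B and C). Its rise in B and C was 4.30 ± 0.47 (SE; limma adjusted p = 4.07e-05), yet its highest value was A of 6 h. The sodium channel subunit gene Teh1 rose by 5.57 ± 0.75 (SE; limma adjusted p = 0.000258), with A of 6 h at 1292 and A of 12 h at 96.58. All libraries together gave 0.95 for beat-Ib, 1.88 for Blimp-1, 1.46 for DopEcR, 0.98 for Rbp9 and 2.47 for Teh1.

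The poly(A) polymerase gene Gld2, dpr14 and the proline dehydrogenase gene slgA had fitted changes of 5.63, 5.56 and 4.32 in B and C, with sizes that rest on 1 library of 6 h. For Gld2, B of 6 h was at 263.8 while C of 6 h was at 0, and for dpr14 the pair was 146.6 and 0. Without C of 6 h the change of Gld2 was 1.61 and that of dpr14 1.96, and without B of 6 h they were 9.66 and 9.16. DESeq2 gave 2.46 and 2.77, and edgeR 2.38 and 2.68. The change of slgA was 2.13 without B of 6 h and 6.52 without C. In this direction 6 annotation-number genes ranked among the named ones. Of these, CG43816 and CG13245 share coordinates inside beat-Ic and had the same values in all 6 libraries, so they add no separate signal. Fitted over all libraries, the changes came to 3.23 for Gld2, 2.81 for dpr14 and 0.98 for slgA. In A alone, the changes were −1.57 for Gld2, −2.70 for dpr14 and −5.70 for slgA. The call of Gld2 (limma adjusted p up to 0.261) ended without B or C of 12 h or C of 6 h, and those of dpr14 (0.189) and slgA (0.123) without B or C of 12 h. Among the other settings, fitting 6 and 12 h alone and DESeq2 ended those of Gld2, dpr14 and slgA, edgeR and median-ratio scaling ended that of Gld2, and no filter on low values ended those of Gld2 and dpr14.

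In the other direction 139 genes met the rule. The zinc-finger gene Kr-h1, a factor that juvenile hormone induces, stood at 8.615, 6675 and 5491 in A, B and C of 6 h and at 2628, 80.31 and 151.1 in A, B and C of 12 h. It fell in B and C from 6083 ± 838 (SD, n = 2) to 116 ± 50.1, which is −5.77 ± 0.76 (SE; limma adjusted p = 0.000208) on the log2 scale, while A of 12 h exceeded A of 6 h. The allatostatin A receptor gene AstA-R1 stood at 0, 1943 and 1596 at 6 h and at 849.2, 0 and 10.79 at 12 h (A, B and C). B and C held 984 and 2 reads at 6 and 12 h, a ratio of 445 (95% counting interval 123 to 3682) in favour of 6 h, and A of 6 h held 0. The octopamine receptor gene Octbeta1R stood at 379.1, 1780.1 and 1434 at 6 h and at 872.5, 70.27 and 59.37 at 12 h (A, B and C). It fell by 4.61 ± 0.66 (SE; limma adjusted p = 0.00043) in B and C, with both A libraries between the groups. CngA, a cyclic nucleotide-gated channel gene, stood at 482.4, 6681 and 6060.4 at 6 h and at 4749, 501.9 and 296.8 at 12 h (A, B and C). Its change in B and C was −4.04 ± 0.58 (SE; limma adjusted p = 0.000459), with A of 6 h at the level of 12 h and A of 12 h near that of 6 h. The Unc-13 family gene unc-13-4A stood at 426.4, 13183 and 11464 at 6 h and at 7230.1, 970.4 and 949.8 at 12 h (A, B and C). The change was −3.68 ± 0.32 (SE; limma adjusted p = 4.26e-06), the most precise of the 12, and A moved by 4.08. With A included, the changes were −1.15 for Kr-h1, −2.76 for AstA-R1, −2.67 for Octbeta1R, −1.59 for CngA and −1.09 for unc-13-4A.

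The integrin subunit gene scb stood at 0, 818.1 and 770.1 at 6 h and at 366.3, 0 and 0 at 12 h (A, B and C). No read was found in B and C of 12 h, so it was at least 130-fold lower there. The serotonin receptor gene 5-HT2A stood at 0, 906 and 425.7 at 6 h and at 696, 6.693 and 10.79 at 12 h (A, B and C), with A of 6 h at 0 and A of 12 h inside the range of B and C of 6 h. The transcriptional corepressor gene nvy, dpr20 and ImpE2 changed by −5.14, −4.46 and −4.84 (dpr20 by −2.33 without C of 12 h), and of the 12 named lower genes ImpE2 was the only one whose sign A shared. The Osiris family genes Osi6 and Osi7 are given with the cuticle genes below. Lower at 12 h, 8 annotation-number genes ranked among the named ones, such as CG4115 (−5.28) and CG45075, which overlaps Kr-h1 on the same strand and had similar values. In the fit with A the values were −3.58 for scb, −0.87 for 5-HT2A, −2.54 for nvy, −2.11 for dpr20 and −1.93 for CG4115. Replicate A by itself gave 2.67 for nvy, 2.60 for dpr20 and 4.76 for CG4115. The calls of scb (limma adjusted p up to 0.128), 5-HT2A (0.189), ImpE2 (0.198) and CG4115 (0.269) ended without any of the 4 libraries, and those of nvy (0.0713) and dpr20 (0.382) without C of 12 h or B or C of 6 h. Beyond single libraries, no filter on low values ended those of 5-HT2A, dpr20, ImpE2 and CG4115, and fitting 6 and 12 h alone ended that of dpr20.

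**Figure D4:**
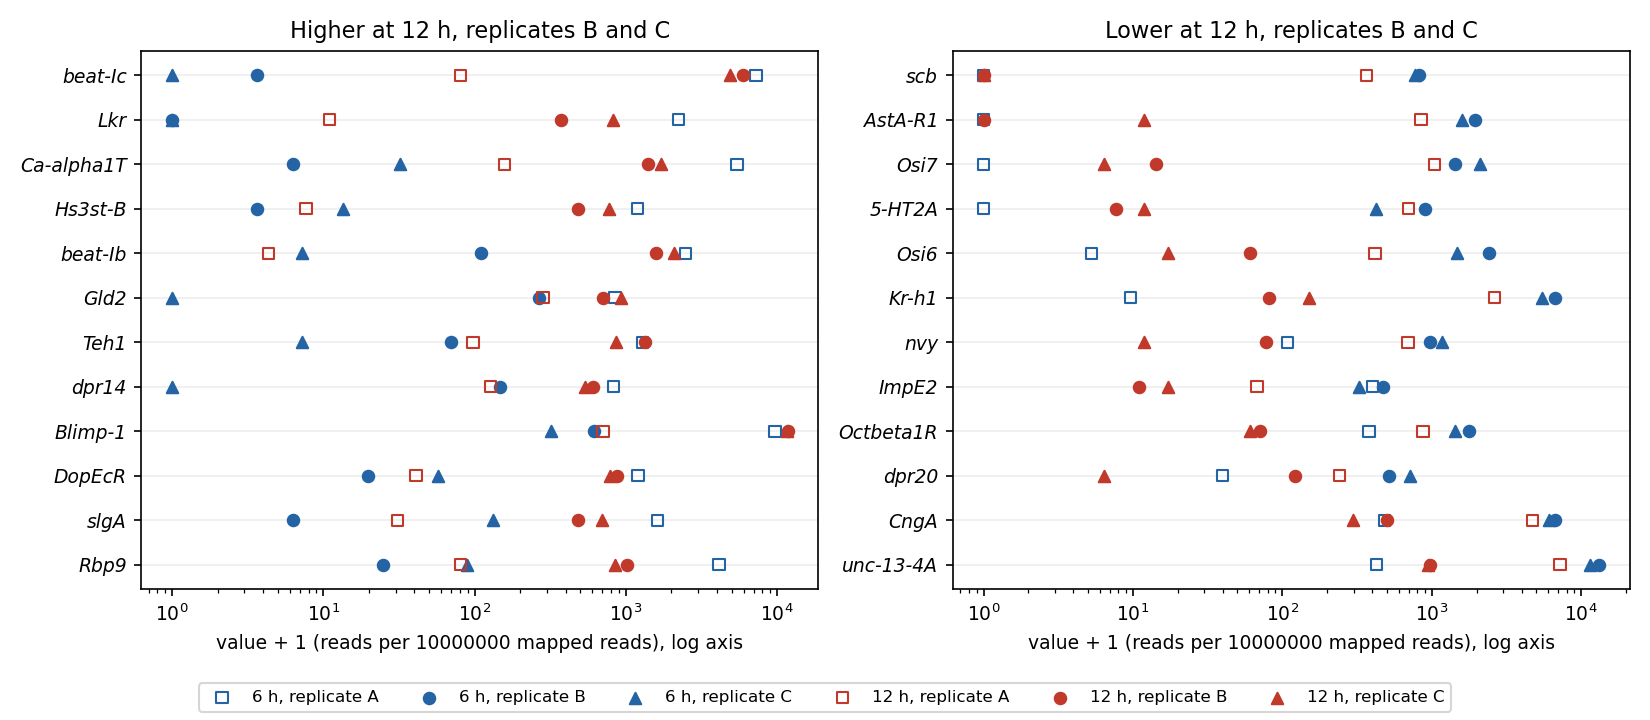
Values of the 12 genes named in each direction from replicates B and C, on a log axis of value + 1 (reads per 10000000 mapped reads); blue is 6 h, red 12 h, open squares are replicate A, circles B and triangles C. In most rows the open blue square lies with the filled red marks and the open red square with or towards the filled blue marks, and for ImpE2 the open squares lie with or nearest the filled marks of their own time.

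Among the named genes, beat-Ic maps to 2L (plus strand, 16000291 to 16041703), Lkr to 3L (minus strand, 5512421 to 5529341) and Ca-alpha1T to X (minus strand, 6104085 to 6192483). Blimp-1 is found on 3L (plus strand, 5630983 to 5652094), Kr-h1 on 2L (plus strand, 6082603 to 6096498), AstA-R1 on X (plus strand, 3574536 to 3666724) and unc-13-4A on 3L (minus strand, 7266192 to 7312896). Coordinates are whole-gene spans as the deposited table gives them, counted from 1, and they match the BDGP6 annotation for 96.0% of matched genes. The called share was 6.35% on 2L, 5.36% on 2R, 6.17% on 3L, 5.85% on 3R, 7.03% on X and 11.1% on the small chromosome 4. There 7 of 63 members were called, all higher, among them PlexA, the calcium pump gene PMCA and the ATP synthase gene ATPsynbeta. Of the 394 genes, 37 lay over another gene of the same strand that was called the same way, and 4 lay over such a gene of the opposite strand. Gld2 with SKIP, rg with CG15465 and Myc with CR44999 are pairs of this kind. All such pairs may share reads, since no source used here gives the strand setting of the counting.

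Genes of the ecdysone response were called in both directions in B and C, 3 higher and 6 lower of 22 measured (40.9%). For this and the lists that follow, the share over all genes was 6.13%, with 3.61% higher and 2.52% lower, and over all libraries 0 members of any list were called. The median log2 change of the 22 was −0.23 in B and C and 0.62 in A, beside 0.14 and −0.08 over all genes. EcR, the hormone's receptor, stood at 3558, 1431 and 1265 in A, B and C of 6 h and at 1665, 4464 and 4566 in A, B and C of 12 h. In B and C it rose by 1.75 ± 0.22 (SE; limma adjusted p = 0.000117), with A of 6 h nearer B and C of 12 h and A of 12 h nearer B and C of 6 h. Eip93F, a late-acting factor, stood at 10321, 3779 and 4214 at 6 h and at 6018, 20908 and 16519.7 at 12 h (A, B and C). Its change in B and C was 2.22 ± 0.19 (SE; limma adjusted p = 2.93e-06) and −0.78 in A. The third higher gene was Blimp-1. The nuclear receptor gene Hr4 stood at 1667, 11933 and 10819 at 6 h and at 8176, 732.8 and 1635 at 12 h (A, B and C). The gene fell by 3.37 ± 0.36 (SE; limma adjusted p = 3.42e-05) in B and C, with A of 12 h towards B and C of 6 h. The other lower genes were vri, Kr-h1, ImpE2, Eip74EF (−1.96) and Hr46 (−3.17), an early gene and a nuclear receptor gene. All libraries together gave 0.80 for EcR, 1.22 for Eip93F, −1.49 for Hr4, −0.23 for Eip74EF and −0.77 for Hr46. Within A the changes came to 3.22 for Eip74EF and 4.02 for Hr46. The call of Eip74EF (limma adjusted p up to 0.0862) ended without B of 12 h or B or C of 6 h, and that of Hr46 (0.099) without C of 12 h or B or C of 6 h.

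Sox14, the factor downstream of EcR in pruning, stood at 620.3, 6228 and 4019 in A, B and C of 6 h and at 4726, 2326 and 2283 in A, B and C of 12 h. B and C of 6 h lay above those of 12 h, A of 6 h was the lowest of all, and the change in B and C was −1.12 ± 0.55 (SE; limma adjusted p = 0.315). It was called only with the libraries of 6 and 12 h alone, at a limma adjusted p = 0.0348. Mical, the actin-oxidising enzyme, stood at 887.3, 2049 and 2448 at 6 h and at 1842, 1054 and 1716 at 12 h (A, B and C). Its libraries overlapped, and in B and C the change was −0.74 ± 0.30 (SE; limma adjusted p = 0.194). Eip75B, a nuclear receptor gene, stood at 35446, 49248 and 37076 at 6 h and at 47094, 60742 and 62458 at 12 h (A, B and C). All B and C values of 12 h lay above the other 4, the change in B and C was 0.53 ± 0.17 (SE; limma adjusted p = 0.0931), and with B of 6 h left out limma adjusted p = 0.0244. The broad gene br stood at 193.8, 1820 and 1246 at 6 h and at 1359, 1901 and 2250.5 at 12 h (A, B and C), with A of 6 h far below the other 5 libraries, and its change in B and C was 0.46 ± 0.33 (SE; limma adjusted p = 0.534). Fitted over all libraries, the changes came to 0.23 for Sox14, −0.14 for Mical, 0.49 for Eip75B and 1.24 for br.

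Calls among axon pruning effectors, TGF-β and degradation genes were near the share over all genes, with 0 or 1 call a list. Of 31 pruning effectors, cv-c alone was called (3.23% against 6.13%; median change −0.18 in B and C, 0.31 in A). The values of those with the next smallest p were −0.83 ± 0.25 (SE; limma adjusted p = 0.0607) for the ESCRT gene shrb, −1.07 ± 0.32 (SE; limma adjusted p = 0.0673) for the presenilin gene Psn and 0.86 ± 0.30 (SE; limma adjusted p = 0.13) for the JNK gene bsk. Of 12 TGF-β and activin genes none was called. The receptor gene babo stood at 934.7, 1732 and 1872 at 6 h and at 1312, 1379 and 1700 at 12 h (A, B and C), with overlapping times and a change of −0.23 ± 0.28 (SE; limma adjusted p = 0.74) in B and C. Of 32 proteasome subunits none was called and the median was −0.01. None of 6 cell death genes was called (median −0.74 in B and C, 1.22 in A), and the executioner caspase gene Dcp-1 came nearest at −1.07 ± 0.31 (SE; limma adjusted p = 0.0533). None of 16 autophagy genes was called (median −0.42 and 0.42). Among 11 JNK and injury genes, the kinase gene msn fell, from 9025 ± 1094 (SD, n = 2) to 3417 ± 61.6, by 1.40 ± 0.20 (SE; limma adjusted p = 0.000465). These counts of 0 are from limma at the threshold over all 6428 genes, and in the median-ratio scaling 1 cell death gene and 2 pruning effectors were called lower. With A included, the changes were −0.38 for shrb, −0.22 for Psn, 0.43 for bsk, 0.01 for babo, −0.39 for Dcp-1 and −0.36 for msn. In A alone, the changes were 0.52 for shrb, 1.49 for Psn, −0.43 for bsk, 0.96 for Dcp-1 and 1.71 for msn.

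Of 22 microtubule genes, 4 rose and 1 fell (22.7% against 6.13% of all genes), with a median of 0.26. The tubulin gene betaTub56D stood at 32780.1, 7799.8 and 7769.6 in A, B and C of 6 h and at 9298, 22798 and 21102 in A, B and C of 12 h. B and C of each time were nearly equal and A of 6 h exceeded them all, and the rise in B and C was 1.49 ± 0.17 (SE; limma adjusted p = 5.58e-05). The gene futsch, a MAP1B-type microtubule-associated protein, rose by 1.85 ± 0.30 (SE; limma adjusted p = 0.0012) and alphaTub84B and the dynein heavy chain gene Dhc64C by 1.06 and 1.47, while the severing enzyme gene spas changed by −1.84. Of 27 actin regulators, 2 rose and 1 fell (11.1%; median −0.03). The Rac exchange factor gene sif stood at 12659.7, 1444 and 1421 at 6 h and at 4133, 14529.6 and 14561 at 12 h (A, B and C). Replicates B and C of each time were nearly equal, A of 12 h lay between the times, and the rise in B and C was 3.34 ± 0.17 (SE; limma adjusted p = 1.60e-08). The actin gene Act5C stood at 103565, 28063 and 27128 at 6 h and at 38472, 58272 and 64476 at 12 h (A, B and C), a rise in B and C of 1.15 ± 0.16 (SE; limma adjusted p = 0.000305), with the highest value in A of 6 h. The profilin gene chic, in B and C, fell by 0.80 ± 0.18 (SE; limma adjusted p = 0.0131). In the fit with A the values were 0.39 for betaTub56D, 1.20 for futsch, 0.26 for alphaTub84B, 0.28 for Dhc64C, −0.73 for spas, 1.69 for sif, 0.29 for Act5C and −0.31 for chic. Replicate A by itself gave −0.11 for futsch, −1.35 for alphaTub84B, −2.11 for Dhc64C, 1.48 for spas and 0.66 for chic. The call of alphaTub84B (limma adjusted p up to 0.14) ended without C of 12 h or B of 6 h, that of Dhc64C (0.174) without B or C of 12 h or B of 6 h, that of spas (0.182) without any of the 4 libraries, and that of chic (0.128) without B or C of 12 h or C of 6 h. In addition, fitting 6 and 12 h alone ended that of Dhc64C, and no filter on low values ended that of spas.

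Of 7 DIP genes, immunoglobulin proteins that bind Dpr partners at the cell surface, 3 were called higher and 1 lower (57.1% against 6.13% of all genes), and the list median was 2.39 in B and C, −4.17 in A and 0.18 over all libraries. DIP-delta stood at 2826, 39.97 and 275.5 in A, B and C of 6 h and at 156.5, 565.5 and 615.2 in A, B and C of 12 h. Both B and C of 12 h lay above those of 6 h, A of 6 h was the highest library by far, and the rise in B and C was 2.47 ± 0.62 (SE; limma adjusted p = 0.0262). DIP-gamma stood at 6358, 207.9 and 194.1 at 6 h and at 353, 1603 and 2822 at 12 h (A, B and C). B and C showed a rise of 3.40 ± 0.28 (SE; limma adjusted p = 2.63e-06) and, in A, 6 h again exceeded 12 h. For DIP-theta, B and C of 6 h held 0 reads, so it was at least 12.9-fold higher at 12 h, with A at 1098 at 6 h and 0 at 12 h. Its B and C of 12 h were at 56.89 and 97.14. DIP-theta thus passed the filter only through the libraries where it was high, and the list share and median include it. CG31814, DIP-kappa in the current annotation, stood at 275.7, 1209.8 and 1709 at 6 h and at 1316, 110.4 and 64.76 at 12 h (A, B and C). Its value fell by 4.07 ± 0.73 (SE; limma adjusted p = 0.00264) in B and C, opposite to the 3 called higher, and the other 3 DIP genes were not called. All libraries together gave 0.26 for DIP-delta, 0.88 for DIP-gamma, 0.79 for DIP-theta and −1.96 for CG31814.

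Of 19 dpr genes, 3 were called higher and 2 lower (26.3%; median 0.86 in B and C, −0.69 in A). The partner of DIP-delta, dpr12, stood at 710.7, 381.1 and 651.1 in A, B and C of 6 h and at 709.4, 615.7 and 858.1 in A, B and C of 12 h. The times overlapped, the A libraries were nearly equal, and the change in B and C was 0.54 ± 0.41 (SE; limma adjusted p = 0.559). The gene dpr6 stood at 4127, 1063 and 582.3 at 6 h and at 2091, 3634 and 3902 at 12 h (A, B and C) and rose in B and C by 2.26 ± 0.27 (SE; limma adjusted p = 7.80e-05). The gene dpr8 stood at 10825, 29123 and 25826 at 6 h and at 19749, 12642 and 13967 at 12 h (A, B and C) and in B and C fell by 1.05 ± 0.18 (SE; limma adjusted p = 0.00209). In both genes A of 12 h lay between the B and C values of the times, and A of 6 h with those of 12 h or beyond. For dpr13, B and C held 1 and 65 reads, a ratio of 71.8 (95% counting interval 12.4 to 2880). This gene passed the filter only through A of 6 h and B and C of 12 h, where it was high. The others called were dpr14 and dpr20. Of 17 beat and side genes, only beat-Ib and beat-Ic were called (11.8%), in one direction. Without B of 6 h the change of DIP-delta was 1.10, and without C of 6 h it was 3.85. Fitted over all libraries, the changes came to 0.36 for dpr12, 1.18 for dpr6, −0.41 for dpr8 and 2.78 for dpr13. Within A the change came to −3.88 for dpr13. The call of DIP-delta (limma adjusted p up to 0.171) ended without B or C of 12 h or B of 6 h, that of CG31814 (0.0553) without C of 6 h, and that of dpr13 (0.0994) without C of 12 h. With all 4 libraries, fitting 6 and 12 h alone ended those of DIP-delta, DIP-theta and dpr13, and no filter on low values ended that of DIP-delta.

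Of 28 axon guidance genes, 3 were called higher and 2 lower (17.9% against 6.13% of all genes), with a median of 0.00. The Dscam paralogues went both ways. Dscam2 stood at 9299.9, 2265 and 1083 at 6 h and at 2334, 6769.6 and 7442 at 12 h (A, B and C), a rise in B and C of 2.18 ± 0.27 (SE; limma adjusted p = 0.000129), while Dscam3 stood at 1215, 4924 and 4326 at 6 h and at 2961, 1563 and 1182 at 12 h (A, B and C), a change of −1.76 ± 0.30 (SE; limma adjusted p = 0.00169). Dscam4 changed by −1.51, PlexA by 1.20 and the ephrin receptor gene Eph by 1.37. Of 26 adhesion genes, 3 rose and 3 fell (23.1%). The teneurin gene Ten-m, Nlg3 and the leucine-rich repeat gene Con changed by 1.45, 1.51 and 1.17, and Fas1 and CadN by −0.87 and −0.75, and the third lower gene was scb. Fas1 stood at 4273, 25669.8 and 30346 at 6 h and at 27405, 16293 and 14361 at 12 h (A, B and C), with A of 6 h far below the other libraries. With A included, the changes were 0.79 for Dscam2, −0.75 for Dscam3, −0.69 for Dscam4, 1.35 for Eph, 0.14 for Ten-m, 0.77 for Con, 0.32 for Fas1 and −0.01 for CadN. In A alone, the changes were 0.96 for Dscam4, 1.32 for Eph, −2.47 for Ten-m, −0.02 for Con and 1.47 for CadN. The calls of Dscam4 (limma adjusted p up to 0.108) and Ten-m (0.127) ended without C of 12 h, those of Eph (0.329) and CadN (0.203) without B or C of 12 h or B of 6 h, and those of Con (0.195) and Fas1 (0.219) without B or C of 12 h or C of 6 h. Of the remaining alternatives, fitting 6 and 12 h alone ended those of Eph, Con and CadN, edgeR and median-ratio scaling ended those of Eph and Con, and no filter on low values ended those of Eph, Con, Fas1 and CadN.

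Of 24 voltage-gated channel genes, 4 were called higher and 1 lower in B and C (20.8% against 6.13% of all genes; median 0.25). The sodium channel gene para stood at 5742, 1114 and 1008 in A, B and C of 6 h and at 1226, 5003 and 4312 in A, B and C of 12 h. It rose in B and C by 2.13 ± 0.26 (SE; limma adjusted p = 9.68e-05), with A of 6 h the highest and A of 12 h beside B and C of 6 h. The channel regulator gene unc79 stood at 4919, 658.2 and 507.1 at 6 h and at 1632, 2982 and 2930.5 at 12 h (A, B and C) and rose in B and C by 2.35 ± 0.27 (SE; limma adjusted p = 6.58e-05). Ca-alpha1T and the potassium channel gene Sh (0.85) were the other higher ones. CG42732, SLO2 in the current annotation, fell by 1.38 ± 0.24 (SE; limma adjusted p = 0.00241). Of 20 ionotropic receptor genes, 3 rose and 1 fell (20%). The GABA receptor gene Rdl stood at 7301, 3707 and 1959.6 at 6 h and at 7227, 13593 and 14016 at 12 h (A, B and C). Its A libraries were level with each other, between the groups, and the rise in B and C was 2.36 ± 0.25 (SE; limma adjusted p = 2.56e-05). The acetylcholine receptor subunit genes nAChRbeta2 and nAChRalpha1 went opposite ways, by 3.61 and −1.83, and the glutamate-gated chloride channel gene GluClalpha changed by 0.79. In the fit with A the values were 0.68 for para, 1.04 for unc79, 0.46 for Sh, −0.76 for CG42732, 1.57 for Rdl, 1.97 for nAChRbeta2, −0.79 for nAChRalpha1 and 0.20 for GluClalpha. Replicate A by itself gave −0.32 for Sh, 0.48 for CG42732, −1.32 for nAChRbeta2, 1.29 for nAChRalpha1 and −0.98 for GluClalpha. The call of Sh (limma adjusted p up to 0.0801) ended without B or C of 12 h, that of nAChRbeta2 (0.134) without C of 12 h or B of 6 h, and that of GluClalpha (0.219) without any of the 4 libraries. By setting, fitting 6 and 12 h alone ended those of nAChRbeta2 and GluClalpha, and edgeR and median-ratio scaling ended that of GluClalpha.

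Of 13 monoamine and muscarinic receptor genes, 2 were called higher and 4 lower (46.2% against 6.13% of all genes; median −0.48 in B and C, 0.67 in A). Besides DopEcR, the muscarinic receptor gene mAChR-A rose, from 337 ± 28.1 (SD, n = 2) to 1357 ± 26.1, by 2.01 ± 0.36 (SE; limma adjusted p = 0.00264). The dopamine receptor genes Dop2R and Dop1R2 fell by 0.91 and 1.71 in B and C, beside Octbeta1R and 5-HT2A. Of 14 cAMP and memory signalling genes, 2 rose and 2 fell (28.6%). Galphaq and the phospholipase C gene norpA, which act in one pathway in the fly eye, changed by 0.92 and 0.95, and another phospholipase C gene, Plc21C, and the A-kinase anchor protein gene rg by −1.20 and −0.67. Of 7 neuropeptide and receptor genes, Lkr was called higher and AstA-R1 lower. Both passed the filter only through the libraries where they were high. The median of these 7 was 0.10 in B and C. In A, where 4 of them held 0 reads at one time, it was 7.10 as fitted and 3.40 with those 4 at the bound set by a floor of 3 reads per library. All libraries together gave 0.90 for mAChR-A, −0.60 for Dop2R, −0.42 for Dop1R2, 0.58 for Galphaq, 0.49 for norpA, −0.37 for Plc21C and −0.02 for rg. Within A the changes came to −1.32 for mAChR-A, 0.01 for Dop2R, 2.17 for Dop1R2, −0.11 for Galphaq, −0.42 for norpA, 1.31 for Plc21C and 1.29 for rg. The calls of Dop2R (limma adjusted p up to 0.184) and Dop1R2 (0.247) ended without any of the 4 libraries, that of Galphaq (0.0982) without B or C of 12 h, that of norpA (0.192) without B or C of 12 h or C of 6 h, that of Plc21C (0.0741) without C of 12 h, and that of rg (0.209) without B or C of 12 h or B of 6 h. Among the other settings, fitting 6 and 12 h alone ended those of Dop2R, norpA and rg, no filter on low values ended those of Dop2R and Dop1R2, and median-ratio scaling ended that of norpA.

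Synaptic genes had 4 of 37 called higher and 0 lower (10.8% against 6.13% of all genes, with stnA and stnB as 1 signal; median 0.25). The RIM-binding protein gene Rbp stood at 1008, 298.5 and 206.6 in A, B and C of 6 h and at 1016, 1315 and 1279 in A, B and C of 12 h. The A libraries were level with each other beneath B and C of 12 h, all 3 libraries of 12 h exceeded those of 6 h, and the rise in B and C was 2.38 ± 0.40 (SE; limma adjusted p = 0.00163). The stoned genes stnA and stnB are listed with the same values in all 6 libraries and count as 1 signal, 3058, 780.8 and 757.6 at 6 h and 706, 2152 and 2218 at 12 h (A, B and C), with a rise in B and C of 1.5 ± 0.26 (SE; limma adjusted p = 0.00187). Rab3-GEF rose by 1.5 ± 0.28 (SE; limma adjusted p = 0.00408). Of 15 neuron markers, 5 rose and 1 fell (40%). The sodium pump subunit gene nrv3 stood at 4463, 826.1 and 613.6 at 6 h and at 1432, 3631 and 6018 at 12 h (A, B and C), a rise in B and C of 2.71 ± 0.26 (SE; limma adjusted p = 1.06e-05) with A the other way. The others were Rbp9, futsch, para, cpo (0.76) and, lower, CadN. Fitted over all libraries, the changes came to 1.59 for Rbp, 0.30 for stnA, 0.87 for Rab3-GEF, 1.26 for nrv3 and 0.28 for cpo. In A alone, the changes were −0.40 for Rab3-GEF and −0.69 for cpo. The call of Rab3-GEF (limma adjusted p up to 0.0504) ended without C of 12 h, and that of cpo (0.104) without B or C of 12 h. Beyond single libraries, median-ratio scaling ended that of cpo.

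Of 20 Kenyon cell genes, 5 were called higher and 0 lower (25%), and of 10 temporal factors 5 higher and 1 lower (60%), against 6.13% of all genes. The median change was 0.33 in B and C and 0.19 in A for Kenyon cell genes, and 0.54 and 0.21 for temporal factors. Over all genes it was 0.14 and −0.08. All 3 libraries of 12 h lay above all of 6 h for 6 of the 20 and 2 of the 10, and below for 0 of either. Over all 6428 genes these counts were 318 and 205. Of the called genes ab, chinmo, Syp and let-7-C are in both lists, so these counts are not separate. The zinc-finger gene ab stood at 1081, 157.2 and 106.4 in A, B and C of 6 h and at 469.6, 1369 and 1112 in A, B and C of 12 h. The gene rose in B and C by 3.24 ± 0.37 (SE; limma adjusted p = 6.58e-05), with A of 6 h just below B and C of 12 h. The homeodomain gene pros and the RNA-binding protein gene Syp changed by 0.65 and 0.62, chinmo by 1.04 and the microRNA host gene let-7-C by 1.76. With median-ratio scaling the counts were 2 of 20 and 3 of 10 higher. Among 18 factors of neuronal maturation, pros was called higher and nvy and nerfin-1 lower. The zinc-finger gene nerfin-1 stood at 4.307, 1732 and 1816 at 6 h and at 1219, 170.7 and 421 at 12 h (A, B and C). It fell by 2.72 ± 0.76 (SE; limma adjusted p = 0.0478) in B and C, and A of 6 h held 1 read. With A included, the changes were 1.76 for ab, 0.29 for pros, 0.47 for Syp, 0.56 for let-7-C and 0.80 for nerfin-1. Replicate A by itself gave −0.42 for pros, 0.16 for Syp and −1.86 for let-7-C. The call of pros (limma adjusted p up to 0.309) ended without B or C of 12 h or C of 6 h, and those of Syp (0.336), let-7-C (0.238) and nerfin-1 (0.253) without any of the 4 libraries. In addition, fitting 6 and 12 h alone, edgeR and median-ratio scaling ended those of pros, Syp and let-7-C, DESeq2 ended those of pros and Syp, and no filter on low values ended those of pros, Syp, let-7-C and nerfin-1.

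In B and C the called glycolysis genes were all lower and the called respiration genes all higher, and in A the list medians had the other signs. Of 12 glycolysis genes, 5 were called lower and 0 higher (41.7% against 6.13% of all genes), with a median of −1.29 in B and C, 1.48 in A and −0.38 over all libraries. The enolase gene Eno stood at 6315, 12559 and 14143 in A, B and C of 6 h and at 11010, 4374 and 4571 in A, B and C of 12 h. B and C of 12 h lay below B and C of 6 h, A of 6 h was nearer the former and A of 12 h nearer the latter, and the change in B and C was −1.58 ± 0.19 (SE; limma adjusted p = 8.07e-05). Hex-A, Pgk, Gapdh2 and Tpi changed by −1.97, −1.72, −1.33 and −2.56. Summed over the list, the values were 14671, 36342 and 44314 in A, B and C of 6 h and 35125, 13231 and 15068 at 12 h. Of 62 oxidative phosphorylation genes, 8 were called higher and 0 lower (12.9% against 6.13%), with a median of 0.45 in B and C, −1.01 in A and 0.09 over all libraries. The change of ATPsynF was 0.59 without B of 6 h. ATPsynC, a subunit of the ATP synthase rotor, stood at 36730, 8764 and 8922 at 6 h and at 10254, 24421 and 21269 at 12 h (A, B and C). It rose in B and C by 1.37 ± 0.17 (SE; limma adjusted p = 0.000106), with A of 6 h the highest. Further ATP synthase genes were blw, ATPsynbeta, ATPsyndelta, ATPsynO and ATPsynF, at 1.17, 1.51, 1.20, 0.87 and 0.92, and the cytochrome c gene Cyt-c-p and the oxidase subunit gene levy stood at changes of 2.03 and 0.96. In the fit with A the values were −0.78 for Eno, −1.24 for Hex-A, −0.67 for Pgk, −0.38 for Gapdh2, −0.70 for Tpi, 0.30 for ATPsynC, 0.29 for blw, 1.18 for ATPsynbeta, 0.35 for ATPsyndelta, 0.14 for ATPsynO, 0.25 for ATPsynF, 0.26 for Cyt-c-p and 0.20 for levy. Within A the changes came to 0.22 for Hex-A, 1.44 for Pgk, 1.52 for Gapdh2, 3.02 for Tpi, −1.47 for blw, 0.53 for ATPsynbeta, −1.34 for ATPsyndelta, −1.30 for ATPsynO, −1.09 for ATPsynF, −3.29 for Cyt-c-p and −1.31 for levy. The call of Gapdh2 (limma adjusted p up to 0.0896) ended without C of 12 h or C of 6 h, those of Tpi (0.191) and ATPsynO (0.181) without any of the 4 libraries, those of ATPsynbeta (0.0512) and ATPsyndelta (0.0526) without C of 12 h, that of ATPsynF (0.238) without B or C of 12 h or B of 6 h, and those of Cyt-c-p (0.122) and levy (0.169) without C of 12 h or B of 6 h. With all 4 libraries, DESeq2 ended that of Tpi, no filter on low values ended those of Tpi, ATPsynO and ATPsynF, fitting 6 and 12 h alone ended those of ATPsynO, ATPsynF and Cyt-c-p, and edgeR and median-ratio scaling ended those of ATPsynO and ATPsynF.

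Of 80 cytosolic ribosomal protein genes, RpS24 and RpL10 were called higher, a share of 2.5% against the 6.13% of all genes. Their median was 0.33 in B and C and −0.67 in A. Summed values were 1217897, 618430 and 885665 at 6 h and 781690, 853243 and 982368 at 12 h (A, B and C), with A of 6 h the highest of all and the times overlapping in the other libraries. Of 18 growth genes, the transcription factor gene Myc and the stress-induced growth inhibitor gene chrb rose by 1.12 and 0.98 in B and C, and the kinase gene S6k changed by −1.0 (16.7% called). The change of RpL10, 1.18, was 0.75 without B of 6 h. All libraries together gave 0.21 for RpS24, 0.83 for RpL10, 0.42 for Myc, 0.09 for chrb and −0.21 for S6k. In A alone, the changes were −1.0 for RpS24, 0.13 for RpL10, −0.97 for Myc, −1.69 for chrb and 1.36 for S6k. The call of RpS24 (limma adjusted p up to 0.199) ended without B or C of 12 h or B of 6 h, those of RpL10 (0.283) and S6k (0.232) without C of 12 h or B of 6 h, and that of chrb (0.0652) without C of 12 h. Of the remaining alternatives, fitting 6 and 12 h alone ended those of RpS24 and RpL10, edgeR and median-ratio scaling ended that of RpS24, and no filter on low values ended that of RpL10.

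Heat shock and stress genes were called in both directions, 2 higher and 3 lower of 21 (23.8% against 6.13% of all genes). The small heat shock protein gene Hsp67Bc stood at 15481, 40092 and 47613 in A, B and C of 6 h and at 45752, 15925 and 15429.5 in A, B and C of 12 h. The gene fell by 1.48 ± 0.20 (SE; limma adjusted p = 0.000217) in B and C, and Hsp23 and Hsp26 changed by −1.05 and −0.76. Hsp68 and the mitochondrial superoxide dismutase gene Sod2 rose by 2.85 and 1.59. Of 9 clock genes, 3 were called lower (33.3%). CG31324, Cipc in the current annotation, stood at 86.15, 13913 and 17236 at 6 h and at 10301, 699.4 and 383.2 at 12 h (A, B and C). It fell by 4.90 ± 0.54 (SE; limma adjusted p = 4.28e-05) in B and C, with A of 6 h below every other library and A of 12 h beside B and C of 6 h. The repressor gene vri and the kinase gene nmo changed by −1.71 and −0.70. Fitted over all libraries, the changes came to −0.46 for Hsp67Bc, −0.43 for Hsp23, −0.44 for Hsp26, 0.32 for Sod2, −0.97 for CG31324, −0.21 for vri and −0.28 for nmo. Replicate A by itself gave 0.82 for Hsp23, 0.19 for Hsp26, −2.20 for Sod2, 2.79 for vri and 0.58 for nmo. The call of Hsp23 (limma adjusted p up to 0.0507) ended without B of 12 h, that of Hsp26 (0.131) without B or C of 12 h or B of 6 h, that of Hsp68 (0.239) without C of 12 h or B or C of 6 h, and that of nmo (0.234) without any of the 4 libraries. By setting, no filter on low values ended that of Hsp68, and fitting 6 and 12 h alone ended that of nmo.

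Some marker lists of other cells moved with the split of the A libraries, the cuticle and trachea genes by the widest margin of those described here. Cuticle and trachea genes, 15 of 16 with a read in some library, summed to 12.92 in A of 6 h, 7019 and 5140 in B and C of 6 h, 2538 in A of 12 h, and 160.6 and 107.9 in B and C of 12 h. Osi7 stood at 0, 1442 and 2116 in A, B and C of 6 h and at 1042, 13.38 and 5.397 in A, B and C of 12 h, and in B and C fell by 7.51 ± 2.08 (SE; limma adjusted p = 0.0456). Osi6 fell by 5.86 ± 1.38 (SE; limma adjusted p = 0.018), and TwdlT (−5.38) and the chitin deacetylase gene verm (−5.34) were not called. Their part in the other results was not tested. Of this list, Osi7, TwdlT, verm and serp passed the filter only through B and C of 6 h and A of 12 h, where they were high. The list median was −5.36 in B and C. In A, where 5 of the 6 measured held 0 reads at 6 h, it was 6.92 as fitted and 4.56 with those at the bound of 3 reads per library. The RYamide receptor gene RYa-R overlaps TwdlT on the same strand, so part of its reads may be those of TwdlT, though it stood at 207.5 and TwdlT at 30.12 in B of 12 h. With A included, the changes were −1.66 for Osi7, −1.81 for Osi6, −0.60 for TwdlT and −1.59 for verm. The call of Osi7 (limma adjusted p up to 0.2) ended without any of the 4 libraries, and that of Osi6 (0.155) without C of 12 h or B or C of 6 h.

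The other marker lists differed less. Glia markers, 15 of 16 with a read, summed to 2382 in A of 6 h and 5055 and 4545 in B and C, and to 4203, 3778 and 3022 at 12 h. Most of this was the sodium pump subunit gene nrv2, at 2209.7, 4690 and 3988 at 6 h and at 3607, 3376 and 2553 at 12 h (A, B and C). Muscle markers, 10 of 13 with a read, summed to 5475, 4615 and 4151 at 6 h and 4669, 8613 and 6012 at 12 h, carried mostly by Tm1 and by the giant protein gene bt, which rose in B and C by 1.93 ± 0.30 (SE; limma adjusted p = 0.000749), with Mhc and wupA at 0. Photoreceptor markers, 6 of 14 with a read, were at 3631, 2241 and 1709 and then 2581, 3497 and 4112, nearly all of it norpA. Fat body markers, 7 of 8 with a read, summed to 1443, 604.9 and 475.8 at 6 h and 865.9, 1241 and 1414 at 12 h, most of it the fatty acid synthase gene FASN1. In the photoreceptor and fat body lists A of 6 h lay within or just above the range of B and C of 12 h and A of 12 h nearer 6 h, and in the muscle list A of 6 h lay between the times and A of 12 h with B and C of 6 h. The part of these markers in the other results was not tested either. Hemocyte markers, 5 of 11 with a read, summed to 469.5, 349.1 and 513.4 and then 472.9, 254.3 and 474.9, with overlapping times. Genes of dividing cells and neuroblasts summed to 25694, 51699 and 44539 and then 40030, 48638 and 49645, with A of 6 h the lowest. Most of this was brat, at 23876.5, 48490.9 and 41709.4 and then 36849.8, 45814.2 and 46283.2. In the same list dpn, wor, ase and CycB reached at most 33.3, mira 56.89, stg 144 and PCNA 388.6. Genes of other transmitter types summed to 896, 506.3 and 914.1 and then 792.6, 1021 and 820.3. Of the members that passed the filter, 1 hemocyte, 2 fat body, 4 dividing cell and 3 other transmitter genes, 0 were called by limma. The RNA gene roX1, which acts on the male X chromosome, stood at 8210.1, 3797 and 4282 at 6 h and at 7377, 9373 and 11749 at 12 h (A, B and C). It rose in B and C by 1.38 ± 0.20 (SE; limma adjusted p = 0.000502), and the share of males per library was not analysed here. In the fit with A the values were 0.86 for bt and 0.87 for roX1.

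**Figure D5:**
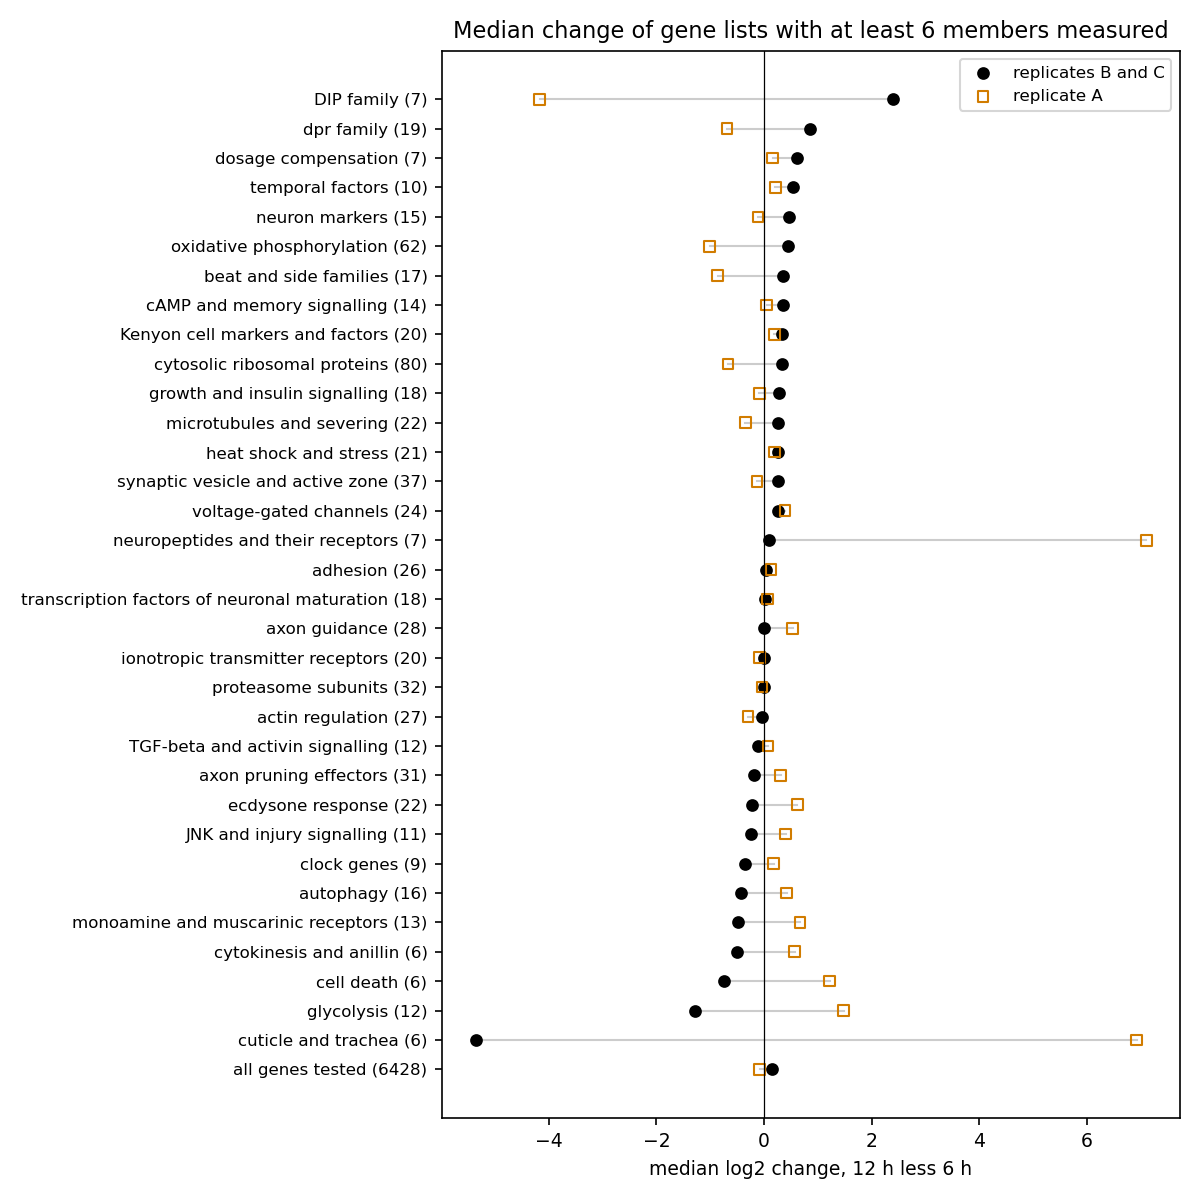
Median log2 change from 6 to 12 h of the gene lists with at least 6 members measured (number in parentheses), in replicates B and C (filled circles) and in replicate A (open squares); the bottom row is all 6428 genes. The signs are opposite for the DIP family (2.39 and −4.17), glycolysis (−1.29 and 1.48) and cuticle and trachea (−5.36 and 6.92, the latter 4.56 with genes at 0 set to their bound), while all genes stand at 0.14 and −0.08.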

How the data were processed

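RNA was measured in 12 libraries, 6 of them from 6 and 12 h. The deposited table gives a normalised signal per gene and library, which per the file headers is reads per 10000000 mapped reads, as the authors scaled them. In each library 100% of the values were whole multiples of 1 read (tolerance 0.02 reads), and the reads recovered in this way were used for DESeq2 1.42.0 and edgeR 4.0.16 as alternatives. Bcl2fastq, HISAT 0.1.5 and HOMER are named per the submitters' processing notes. The handling of multiply mapped reads, strand and molecular identifiers is not given in the sources used. Counting intervals cover counting error only. Symbols were matched to the BDGP6 annotation for 99.1% of genes.

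The main test was limma 3.58.1 under R 4.3.3, on log2(value + 1) with a trend in mean expression and 1 mean per time. On this scale a low gene's change is understated where its libraries agree, and depends on the pseudocount where 1 library is at or near 0. It ran on all 12 libraries and, because the rule asks how A compares with B and C, on the 8 libraries of B and C. Benjamini-Hochberg adjustment ran over the 6428 genes, and called means an adjusted p under 0.05. Simulated data held 100 genes changed by 1 and 100 by 3 on the log2 scale. The changed genes were drawn only from those with more reads than the filter asks. Recovery among genes near the filter was thus not simulated. For both comparisons the simulated spread was that of the B and C libraries. The test recovered 38 and 97 of them with all libraries and 13 and 90 with B and C. False calls were 4 with all libraries and 3 with B and C. With all libraries the median log2 change of the raised genes was 1.05 and 2.91, so the simulated A libraries moved with their labels. For most called genes the deposited A libraries did not. The 38 and 97 thus cannot show what the test as labelled would recover in these data.

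Genes were named as follows. As labelled: no overlap of 3 and 3 libraries, log2 change of at least 1, mean of at least 200, the first 8 in each direction by size, called or not. In B and C: called, with the same limits and no overlap of 2 and 2, the first 12 in each direction, annotation-number genes counted and at most 2 named. Always: 13 genes of hormone response, pruning and identity (Hr51, EcR, Sox14, babo, Fas2, Mical, Eip75B, Eip93F, br, Kr-h1, chinmo, dpr12, DIP-delta), and up to 4 members of each of 41 gene lists with the smallest p. Further called members, named to complete a count, were chosen after their values were seen. The genes, lists, tests and the split of replicate A were chosen with earlier results of these data known.

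Alternatives were another pseudocount (10), no filter or one of 200, the libraries of 6 and 12 h alone, median-ratio scaling, edgeR, DESeq2, the replicate letter as a block, and leaving out each library.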

Additional observations from a re-analysis of the deposited data

How the results depend on the processing

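With all libraries the count of 0 was the same under a pseudocount of 10, both filters, the libraries of 6 and 12 h alone, median-ratio scaling and edgeR. DESeq2 called 2 genes, leaving out 1 library gave 0 to 50, and leaving out both A libraries of 6 and 12 h, a setting added after seeing the data, gave 365. In B and C the 394 calls became 397 with edgeR, 536 with DESeq2, 377 with median-ratio scaling, 282 with the libraries of 6 and 12 h alone and 316 without a filter. Leaving out 1 library gave 165 to 345, and the lone library of that time is then assumed to vary like the other times. Of the 394, 0 changed sign under any of the 12 alternatives. Deviations from the mean of each labelled time correlated at −0.39, −0.13 and −0.12 between libraries of the letters A, B and C. With the A libraries lying towards the other time, these means shift, so the values cannot show whether the letters were pairs. The letters were not taken as pairs. With the replicate block the count was 0 over all libraries and 424 in B and C, of which 387 were among the 394, and it ended the calls of betaTub85D, Osi7 and CG4115. The 523 genes without overlap were 514 with median-ratio scaling and 376 with the filter of 200, and the 6.60% of shared signs lay between 6.58% and 7.27%. Depth limits low genes: 22 of the 394 had at most 3 reads over B and C of one time.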
